A study of Mus musculus with 4 samples.

Results

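The genes described here encode the killing machinery and the defining receptors of natural killer (NK) cells. The 10 members were chosen by name from 54532 genes in the count table: Gzma, Gzmb, Prf1 and Nkg7 for the cytotoxic granule, Klrb1c, Ncr1, Klrk1 and Klrd1 for the cell surface, and Eomes and Tbx21 for transcription. RNA was sequenced from macrophages collected out of tumors of NB9464, a mouse neuroblastoma line in which MYCN is amplified. Tumors arose from cells implanted in mice with (SYK WT) or without (SYK KO) the tyrosine kinase Syk in myeloid cells. They were taken on day 40, with no drug treatment in either group. The name given to the deposited counts mentions an adoptive transfer of macrophages, and whether these libraries came from one is not stated. The labels name bone marrow-derived macrophages as well as tumor macrophages. The libraries are taken here as tumor macrophages of mice of the labelled genotype. The mice were on the C57BL/6 background, and Syk was deleted by crossing a floxed Syk allele with a Cre recombinase driven by the lysozyme M gene, so that the deletion was aimed at myeloid cells and not at NK or T cells. Mice of both genotypes were 4 to 6 weeks old when the cells were injected. Tumor-associated macrophages (TAMs) were taken with magnetic beads against CD11b and F4/80, a selection that leaves some other cells in, and CD11b is also carried by mature NK cells. There were 2 libraries per genotype, M7 and M8 labelled SYK WT and M9 and M10 labelled SYK KO. Nothing states that they came from separate animals, so the p-values below measure the spread between these libraries.

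NK cells and killer T cells destroy target cells by releasing granules that hold perforin, which opens the target membrane, and granzymes, the proteases that pass through and start cell death. Whether an NK cell fires is set by the balance of activating receptors such as NKG2D (Klrk1) and NKp46 (Ncr1) against inhibitory ones such as the CD94 (Klrd1) and NKG2A pair, and the T-box factors Eomes and T-bet (Tbx21) drive the program. In tumors, macrophages and these killer cells meet and exchange signals such as interleukin 15 and the chemokine CXCL9.

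Total counts lay between 20755886 and 23518045, and 3 counts, the smallest signal taken as detectable, corresponded to 0.109 to 0.163 CPM, a gene's count as a share of the TMM-normalized library total. Syk, the targeted gene, went against the labels, with 765 and 569 counts in M7 and M8 and 4033 and 2944 in M9 and M10, so all directions refer to the libraries as labelled. Its log2 fold change (SYK KO minus SYK WT) was 2.8 with TMM (edgeR's quasi-likelihood test, adjusted p = 0.000674). Relative to 10 macrophage markers it was 0.07 (adjusted p = 0.902), and relative to 6 pan-leukocyte genes -0.44 (adjusted p = 0.144). The cause of the higher Syk counts was not tested. All 10 macrophage markers were detected in every library, and leukocyte transcripts as a whole were higher in the libraries labelled SYK KO. The summed CPM of 10 macrophage markers was 917 to 1290 in the libraries labelled SYK WT and 6220 to 10400 in those labelled SYK KO, that of 6 pan-leukocyte genes 225 to 282 against 2180 to 2910, and that of 8 fibroblast markers 12700 to 14600 against 4090 to 5030. Mitochondrial genes took 2.2% to 2.34% of counts in the former and 6% to 15.9% in the latter. In bulk libraries, fewer cells of a type and less RNA per cell cannot be told apart, and the part of these shifts in the results below was not tested.

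The members were low in all 4 libraries, with 440 to 605 counts for the 10 genes together (444 and 471 in M7 and M8, then 605 and 440 in M9 and M10). Of the 7 that passed the expression filter, 3 rose (edgeR's quasi-likelihood test, p-values adjusted by Benjamini-Hochberg) in the libraries labelled SYK KO, namely Klrk1, Klrd1 and Nkg7, against 22.7% of all 16451 genes tested. None fell, against 16.7% of all genes, and that count was also 0 at an unadjusted p under 0.05 and 0 by DESeq2. The count that rose was 1 without M7, 0 without M8, 3 without M9 and 2 without M10. Gzma, Gzmb, Prf1 and Klrb1c did not pass the threshold in either direction. Ncr1, Eomes and Tbx21 were below the filter, which asked for at least 0.437 unnormalized CPM in 2 libraries, and Klrd1 was above that level in both libraries labelled SYK KO but in only 1 labelled SYK WT. The median log2 fold change was 0.34 over the 7 members tested and 0.02 over all genes tested.

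**Figure D1:**
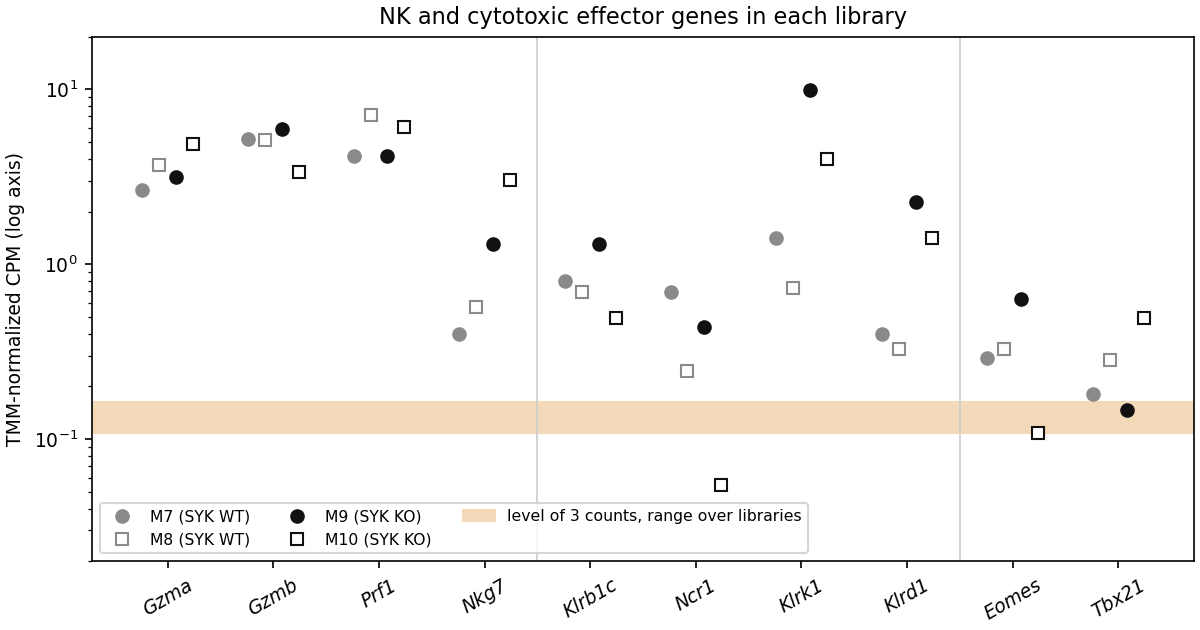
TMM-normalized CPM (log axis) of the 10 members in each library, with gray symbols for M7 and M8 (SYK WT), black symbols for M9 and M10 (SYK KO), and a band at the level of 3 counts. Both black symbols lie above both gray symbols for Nkg7, Klrk1 and Klrd1, and the genotypes overlap for the other 7 genes. The share of all genes separated in this way on the CPM scale was not computed.

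The stretches before the start sites of a pair of genes that rose, Klrk1 and Nkg7, and of a pair that were not called, Gzmb and Prf1, are shown to compare the letters upstream of members that behaved differently. They are the 250 bases before each RefSeq start (GRCm38.p6), read 5′ to 3′ on the gene's strand, from chr6:129623865-129624114 on the minus strand for Klrk1, chr7:43436888-43437137 on the plus strand for Nkg7, chr14:56262335-56262584 on the minus strand for Gzmb and chr10:61297586-61297835 on the plus strand for Prf1. Capitals mark TGTGGT or its reverse complement ACCACA, the core bound by RUNX factors, and TCACAC or its reverse complement GTGTGA, a core of T-box sites.
Klrk1: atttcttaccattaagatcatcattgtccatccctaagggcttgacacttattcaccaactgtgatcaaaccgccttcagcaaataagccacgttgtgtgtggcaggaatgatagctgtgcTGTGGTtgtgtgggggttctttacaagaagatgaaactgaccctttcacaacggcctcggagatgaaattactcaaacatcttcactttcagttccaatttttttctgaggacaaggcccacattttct
Nkg7: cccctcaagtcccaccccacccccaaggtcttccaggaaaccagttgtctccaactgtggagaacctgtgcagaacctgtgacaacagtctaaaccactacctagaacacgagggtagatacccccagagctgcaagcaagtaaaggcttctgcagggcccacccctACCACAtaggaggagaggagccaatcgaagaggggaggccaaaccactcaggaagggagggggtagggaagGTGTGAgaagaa
Gzmb: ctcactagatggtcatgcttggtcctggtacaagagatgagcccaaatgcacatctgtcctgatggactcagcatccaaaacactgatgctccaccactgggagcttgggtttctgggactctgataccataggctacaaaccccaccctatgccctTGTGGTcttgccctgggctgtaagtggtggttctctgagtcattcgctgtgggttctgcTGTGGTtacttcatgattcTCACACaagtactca
Prf1: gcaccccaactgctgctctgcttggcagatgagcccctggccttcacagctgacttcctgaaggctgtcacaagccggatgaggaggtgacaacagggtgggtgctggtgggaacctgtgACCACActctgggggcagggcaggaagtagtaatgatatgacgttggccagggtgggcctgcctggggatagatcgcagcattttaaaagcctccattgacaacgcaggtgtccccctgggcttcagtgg

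All 4 stretches held the RUNX core, whether the gene had risen or not. The core began 129 bases before the start in Klrk1, 83 in Nkg7, 93 and 34 in Gzmb and 130 in Prf1. Over windows from 250 bases before to 50 after the start, 7 of the 9 members with a RefSeq window held it, against 16.8% of 32851 promoters, and the 2 without it were Eomes and Tbx21. The T-box core was in 3 of 9 (Gzmb, Ncr1 and Nkg7), against 14.5% of promoters. No window was matched for Klrd1. In the printed stretches no match of one motif overlapped a match of the other, and a match is not a measured binding site.

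Perforin and both granzymes were present in every library at 62 to 176 counts. With TMM normalization they showed no difference between genotypes beyond the spread of the libraries. Prf1 (ENSMUSG00000037202, chromosome 10), the pore-forming protein, had 114 and 176 counts in M7 and M8 against 86 and 112 in M9 and M10, and a log2 fold change of -0.14 (95% interval -1.13 to 0.86, adjusted p = 0.812). Gzmb (ENSMUSG00000015437, chromosome 14), the aspartate-cutting protease that activates caspases, had 142 and 126 against 123 and 62 counts and a log2 fold change of -0.14 (-1.1 to 0.82, adjusted p = 0.806). Gzma (ENSMUSG00000023132, chromosome 13), a tryptase that acts without caspases, had 73, 91, 65 and 90 counts and a log2 fold change of 0.34 (-0.71 to 1.39, adjusted p = 0.565). On the CPM scale the genotypes overlapped for all 3 genes, and M10 was the lowest library for Gzmb and the highest for Gzma. The overlap depended on the scale. On the length-scaled levels given below, both libraries labelled SYK KO were below both labelled SYK WT for all 3 genes. The share of all genes separated in that way was not computed. Scaled by library size only, without TMM factors, the median log2 fold change of all 16451 genes tested was -0.52. On that scale Gzma (-0.21), Gzmb (-0.65) and Prf1 (-0.68) lay near this median and were not called. The intervals reach from -1.13 to 1.39 log2 units, so equal levels were not shown.

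Nkg7 (ENSMUSG00000004612, chromosome 7), a granule membrane protein needed for efficient release of cytotoxic granules, stood apart from the other granule genes. It had 11 and 14 counts in M7 and M8 and 27 and 56 in M9 and M10, or 0.401, 0.57, 1.31 and 3.05 CPM. Both libraries labelled SYK KO were above both labelled SYK WT, and M10 was above M9. The log2 fold change was 2.16 (SE 0.692, 95% interval 0.49 to 3.82), a 4.46-fold rise with an adjusted p of 0.0487, just inside the threshold. It passed no longer without M7 (adjusted p = 0.324), without M8 (0.258) or without M10 (0.0848).

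Among the receptors, NKG2D and CD94 transcripts rose, whereas NK1.1 did not pass the test. Klrk1 (ENSMUSG00000030149, chromosome 6) encodes NKG2D, the activating receptor for stress-induced ligands, which is found on NK cells and on many killer T cells. Which cells in these libraries carried its transcripts, macrophages included, was not tested. Klrk1 had 39 and 18 counts in M7 and M8 and 205 and 73 in M9 and M10, or 1.42 and 0.732 CPM against 9.95 and 3.98. The genotypes were separate, although M9 was well above M10. The log2 fold change was 2.68 (SE 0.611, 95% interval 1.21 to 4.16, adjusted p = 0.0165), a 6.42-fold rise, and it was 2.28 with an adjusted p of 0.0881 without M8. Klrd1 (ENSMUSG00000030165, chromosome 6) encodes CD94, which pairs with NKG2A or an activating partner and reads the nonclassical MHC molecule Qa-1. Its counts were 11, 8, 47 and 26 in M7 to M10, or 0.401 and 0.326 CPM against 2.28 and 1.42, again with no overlap. How common such a separation was among all genes was not computed. It rose 5.03-fold (log2 fold change 2.33, SE 0.646, 95% interval 0.77 to 3.89, adjusted p = 0.0306), a call that was lost without M7 (adjusted p = 0.247) and without M8 (0.32).

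Klrb1c (ENSMUSG00000030325, chromosome 6) encodes NK1.1, the activating receptor used to identify NK cells in C57BL/6 mice. M7 and M8 held 22 and 17 of its counts and M9 and M10 held 27 and 9, with M9 the highest and M10 the lowest library on the CPM scale, and a log2 fold change of 0.27 (-1.46 to 2, adjusted p = 0.787). An annotated gene on the same strand, Gm44511, shares 413 exon bases with it and had 5, 0, 0 and 36 counts, so reads could have been divided between them. Summing both genes gave 27, 17, 27 and 45 counts and a log2 fold change of 1.16 (adjusted p = 0.181). Klrb1b, an inhibitory relative, behaved differently, with 17 and 34 counts against 544 and 452 (log2 fold change 4.68, adjusted p = 0.000908), and in the libraries labelled SYK KO it filled most of the Klrb1 family sum, whose log2 fold change was 3.79 (adjusted p = 0.000643). Klrb1a also rose, from 2 counts in each library labelled SYK WT to 30 and 13 (log2 fold change 3.73, adjusted p = 0.0179), a call lost without M7 (adjusted p = 0.241) and without M8 (0.247).

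Ncr1 (ENSMUSG00000062524, chromosome 7) encodes NKp46, the receptor most restricted to NK cells and related innate lymphoid cells. Its counts were 19 and 6 in M7 and M8 and 9 and 1 in M9 and M10, so M10 was below the 3-count floor and the genotypes overlapped. In the fit over all genes with at least 1 count, the log2 fold change was -0.92 (adjusted p = 0.635). Eomes (ENSMUSG00000032446, chromosome 9) had 8, 8, 13 and 2 counts and Tbx21 (ENSMUSG00000001444, chromosome 11) 5, 7, 3 and 9, each with overlapping genotypes and values near the floor. Their log2 fold changes in the same fit were 0.26 (adjusted p = 0.902) and 0.41 (adjusted p = 0.849). A difference in these 3 transcripts was not detectable at this depth. Eomes also overlaps an annotated antisense gene, Gm33460, over 118 exon bases, but that gene had at most 6 counts in any library.

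Compared per exon length, granule genes had the highest means in both genotypes. In the libraries labelled SYK WT, the length-scaled level (TPM, counts divided by the bases of merged exons and scaled to a common total) was highest for Gzmb (14.1 ± 0.475, SD, n = 2), Gzma (12.4 ± 2.54) and Prf1 (8.55 ± 2.99), whose neighbours overlapped, followed after a gap by Nkg7 (2.08 ± 0.456). Ncr1, Klrd1 and Klrb1c came next at 0.991 to 1.2 TPM with overlapping libraries, then, separate from Klrb1c, Klrk1 at 0.592 ± 0.282, and last Tbx21 and Eomes at 0.367 and 0.291, of which Tbx21 overlapped with Klrk1 and with Eomes. In the libraries labelled SYK KO the order was Gzma (7.48 ± 0.826), Gzmb (6.52 ± 3.71), Nkg7 (4.34 ± 1.68), Prf1 (3.73 ± 0.251), Klrd1 (2.87 ± 1.48) and Klrk1 (1.98 ± 1.51), and each neighbour overlapped with the next down to Eomes at 0.189 ± 0.205. Nkg7 thus stood above Prf1, Klrd1 above Ncr1, and Klrk1 above both Klrb1c and Ncr1, in the ranking of means. The libraries of Klrd1 and of Klrk1 were separate from those of Ncr1. In M9, Klrd1 (3.92 TPM) was above both Prf1 (3.55) and Nkg7 (3.15). Klrk1 was divided by 7183 exon bases, the most of any member, which lowers its TPM relative to its counts.

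The zero of each fold change depends on what the libraries are scaled to, and for these genes that choice decided which were called. With the 10 macrophage markers as the scale, the median of all genes moved to -2.70, with 86.3% of genes called lower and 0.827% called higher. Scaled to the 6 pan-leukocyte genes, the median was -3.21, with 90.7% called lower and 0.553% called higher. Under both, 4 of the 7 members tested were called lower (Gzma, Gzmb, Prf1 and Klrb1c) and 0 higher. The 4 lay near the median of all genes, with log2 fold changes of -2.36 for Gzma, -2.95 for Gzmb, -2.87 for Prf1 and -2.56 for Klrb1c on the macrophage scale. Klrk1 (-0.10), Klrd1 (-0.42) and Nkg7 (-0.47) lay well above that median and close to the macrophage markers, and were not called (adjusted p = 0.916, 0.724 and 0.678).

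**Figure D2:**
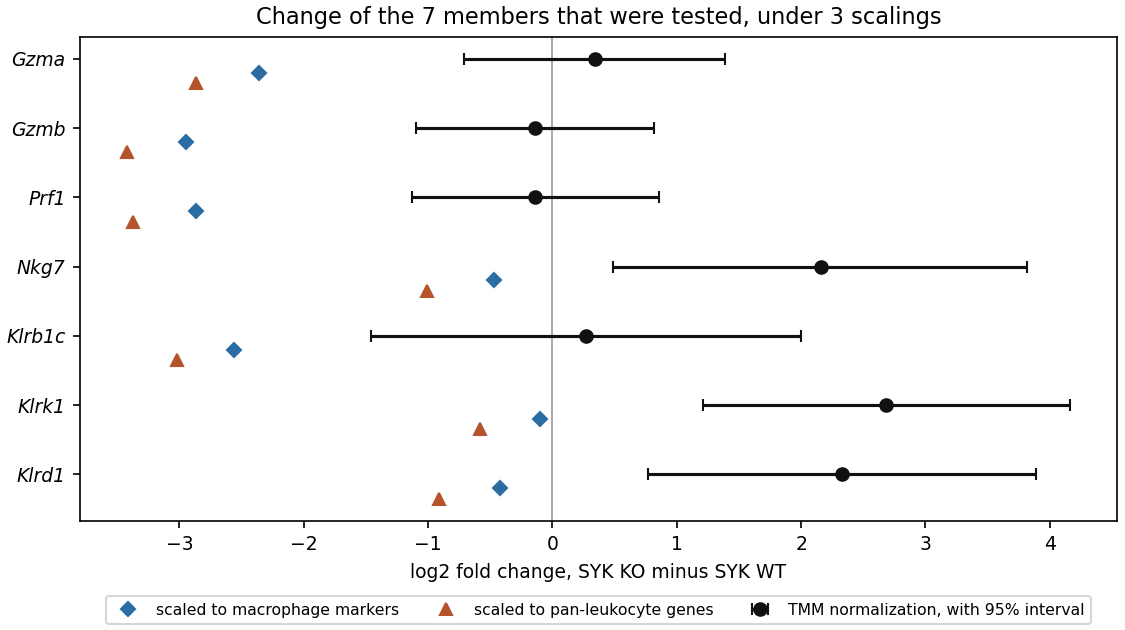
Log2 fold change (SYK KO minus SYK WT) of the 7 members tested, with TMM normalization (circles, bars for the 95% interval), scaled to 10 macrophage markers (diamonds) and scaled to 6 pan-leukocyte genes (triangles). Gzma, Gzmb, Prf1 and Klrb1c sit near 0 on the first scale and between -2.36 and -3.42 on the others, whereas Nkg7, Klrk1 and Klrd1 move from above 2 to between -0.10 and -1.01.

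Counts set against a second gene in the same library do not depend on the scaling. Per 1000 counts of Ptprc, which encodes the leukocyte surface phosphatase CD45, Prf1 had 129 and 307 in M7 and M8 but 16.8 and 31.6 in M9 and M10. Gzmb had 160 and 220 against 24.1 and 17.5. For these genes the libraries labelled SYK WT were higher by 9.0-fold (Prf1) and 9.15-fold (Gzmb) in the ratio of means. Klrk1, in contrast, had 44.1 and 31.4 against 40.1 and 20.6, with M9 inside the range of the libraries labelled SYK WT. Relative to Ptprc, 8 of the 10 members, and 5 of the 7 tested, were lower in both libraries labelled SYK KO than in both labelled SYK WT. The same held for 93.3% of all 16451 genes tested, so being lower on this scale was the common case, and the exceptions among the members were Klrk1 and Nkg7, whose libraries overlapped. With 2 libraries against 2, an exact two-sided permutation test of such a ratio cannot give a p below 0.333, so these values are a description, and Ptprc itself was higher in the libraries labelled SYK KO (log2 fold change 2.99, adjusted p = 0.000834).

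**Figure D3:**
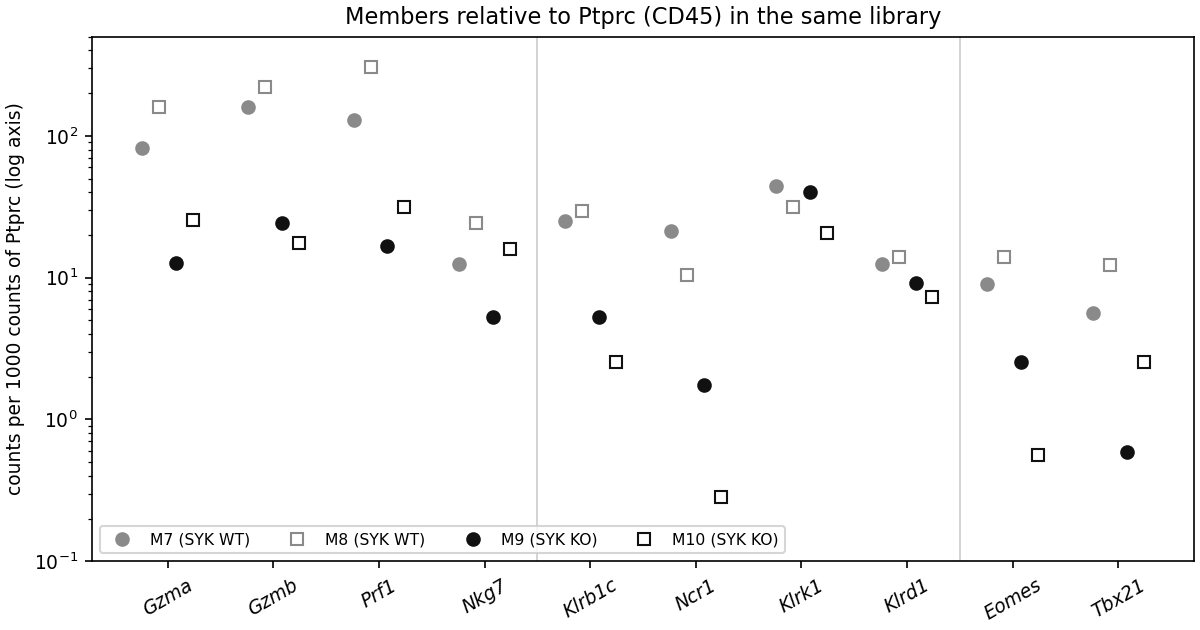
Counts of each member per 1000 counts of Ptprc in the same library (log axis), gray for M7 and M8 (SYK WT) and black for M9 and M10 (SYK KO). The black symbols are below the gray ones for 8 genes, as for 93.3% of all genes tested, and overlap with them for Klrk1 and Nkg7.

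Shares of summed counts within a library restate these differences for pairs of genes. The shifts of Klrk1 with Prf1 and of Klrd1 with Ncr1 follow from the fold changes above and add no separate evidence. No background over other pairs of genes was computed. Klrk1 made up 25.5% (95% Wilson interval 19.2% to 32.9%) of the summed Klrk1 and Prf1 counts in M7 and 9.28% (5.95% to 14.2%) in M8, against 70.4% (65.0% to 75.4%) in M9 and 39.5% (32.7% to 46.6%) in M10. The genotypes did not overlap, but the libraries of each genotype also differed from each other beyond counting error. Klrd1 made up 36.7% and 57.1% of the summed Klrd1 and Ncr1 counts in M7 and M8 and 83.9% and 96.3% in M9 and M10. Gzmb took 66.0%, 58.1% and 65.4% of the summed Gzma and Gzmb counts in M7, M8 and M9 but 40.8% in M10, so M10 stood apart from M9 of its own genotype. The receptor and its adaptor stayed nearer to each other, but this was not particular to the pair, since Klrk1 also stayed near Ptprc above. Hcst and Ptprc had log2 fold changes of 3.0 and 2.99 with TMM. Klrk1 was 67.2%, 64.3%, 66.1% and 51.0% of the sum with Hcst, the DAP10 adaptor through which NKG2D signals, with overlapping genotypes. These intervals cover counting error only, since the reads carried no molecular identifiers and are not independent molecules.

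Most of the other granzyme genes were not called either. Gzmb lies on chromosome 14 beside Gzmc, Gzmf, Gzmn, Gzmg, Gzmd and Gzme, close relatives among which reads can be divided uncertainly, and the 7 genes together had 1132 and 1354 counts in M7 and M8 and 989 and 548 in M9 and M10. Gzmf was the one that fell, from 320 and 436 counts to 147 and 89 (log2 fold change -1.29, adjusted p = 0.0247, or -0.97 and 0.239 without M8), and its share of the cluster went from 28.3% and 32.2% to 14.9% and 16.2%. Gzmc took 22.0% and 15.4% of the cluster in M7 and M8 and 29.3% and 28.3% in M9 and M10, and its own level was not called (log2 fold change 0.36, adjusted p = 0.395). Gzmb held 9.31% to 12.5% of the cluster in all 4 libraries. Gzmn was listed at 0 in every library, and Gzmk, the granzyme typical of memory-like killer T cells, had 0 counts in M7 and M8, which allows up to 0.109 and 0.122 CPM, and 5 and 17 in M9 and M10. Gzmk was below the expression filter, but was called higher in the fit over all genes with at least 1 count (adjusted p = 0.00714) and by DESeq2 (adjusted p = 0.0269). Of the list of 12 other granzymes and killing molecules, 7 were tested, 0 rose by edgeR, 1 fell and 6 were not called (at an unadjusted p under 0.05, 2 of these 7 were higher, and 0 of them by DESeq2), with a median log2 fold change of 0.06.

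**Figure D4:**
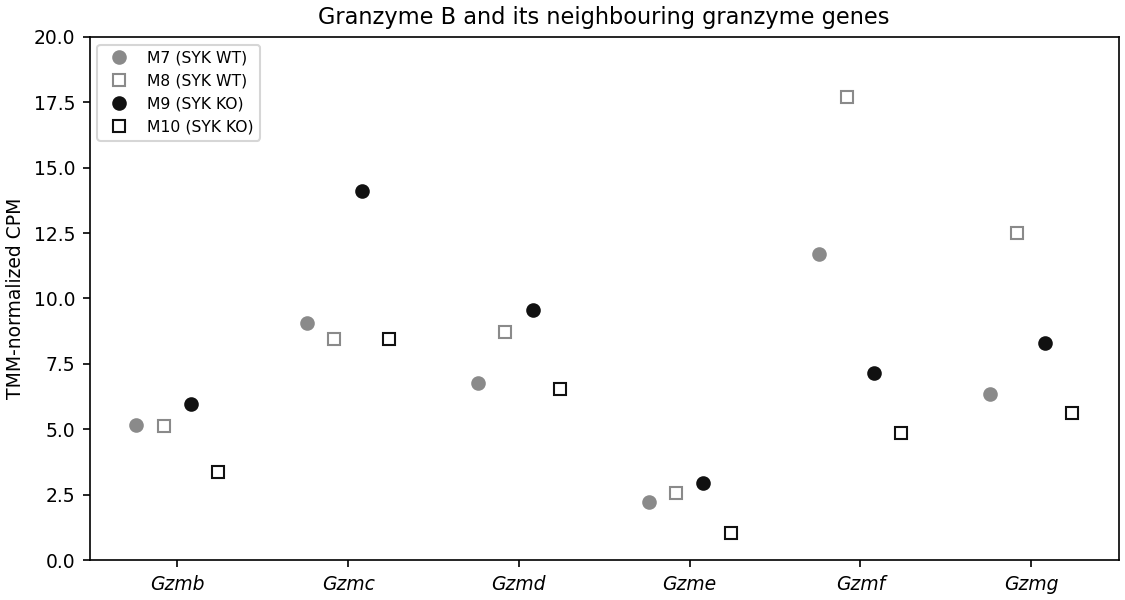
TMM-normalized CPM of Gzmb and 5 of its neighbours on chromosome 14 in each library, gray for M7 and M8 (SYK WT) and black for M9 and M10 (SYK KO). Only Gzmf has both black symbols below both gray ones.

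The wider pathway was taken from lists of 110 genes outside the members, of which 109 were in the table and 80 were tested. Of these, 42 rose, 5 fell and 33 were not called, with a median log2 fold change of 1.49 against 0.02 for all genes. Over all genes tested, 22.7% rose and 16.7% fell, and the counts of each pathway and marker list are to be read against these shares. With each library left out in turn, 28 of the 42 were called higher every time, and the only one of the 5 called lower every time was Itga1. The number called lower in all was 2 without M7, 1 without M8 and 10 without M9. Many of the genes that rose are also used by macrophages, and scaled to the macrophage markers 6 of the pathway genes were called higher and 37 lower.

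Most signaling partners of the receptors also rose. Of the 10 adaptors and kinases tested, 7 rose and 1 fell. Hcst had 19 and 10 counts against 105 and 70 (log2 fold change 3.0, adjusted p = 0.00751, or 0.0821 without M8), and Tyrobp, the DAP12 adaptor that NKG2D can also use and that macrophages carry in quantity, rose by 3.21 on the log2 scale (adjusted p = 0.00136). Fcer1g, the Fc receptor gamma chain that serves NKp46 in NK cells and Fc receptors in macrophages, rose by 3.64 (adjusted p = 0.000716), and Sh2d1b1, the EAT-2 adaptor of SLAM receptors, rose by 4.38 (adjusted p = 0.000898). By contrast Cd247, the zeta chain that NKp46 shares with the T cell receptor, had 12, 13, 17 and 0 counts and was not called (adjusted p = 0.918). The one that fell was Zap70, the kinase downstream of that chain, with 124 and 164 counts against 34 and 27 (log2 fold change -1.84, adjusted p = 0.0175), a gene named after its values were seen, whose call was lost without M7 (adjusted p = 0.0738) and without M8 (0.259).

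Of 28 other NK receptors, 14 passed the filter, 4 rose, 1 fell and 9 were not called. Without M7 or without M8, 2 of the 4 were still called higher. Slamf6, a self-binding SLAM family receptor, rose from 28 counts in each library labelled SYK WT to 222 and 134 (log2 fold change 3.06, adjusted p = 0.0028). Itga1, the alpha 1 integrin chain of tissue-resident NK cells and of stromal cells, fell from 572 and 736 counts to 130 and 149 (log2 fold change -1.82, adjusted p = 0.0044). Klrc1, which encodes the NKG2A partner of CD94, had 6, 2, 5 and 6 counts, Klrc2 at most 4 and Klrc3 0, so no partner of Klrd1 in this family was high enough to be tested. All 5 receptors of NK cells that myeloid cells also carry rose, among them Klra2 (30 and 22 counts against 540 and 405, log2 fold change 4.59, adjusted p = 0.000624), Cd244a (3.42, adjusted p = 0.00138) and Fcgr3, the CD16 receptor for antibody (3.13, adjusted p = 0.00129).

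**Figure D5:**
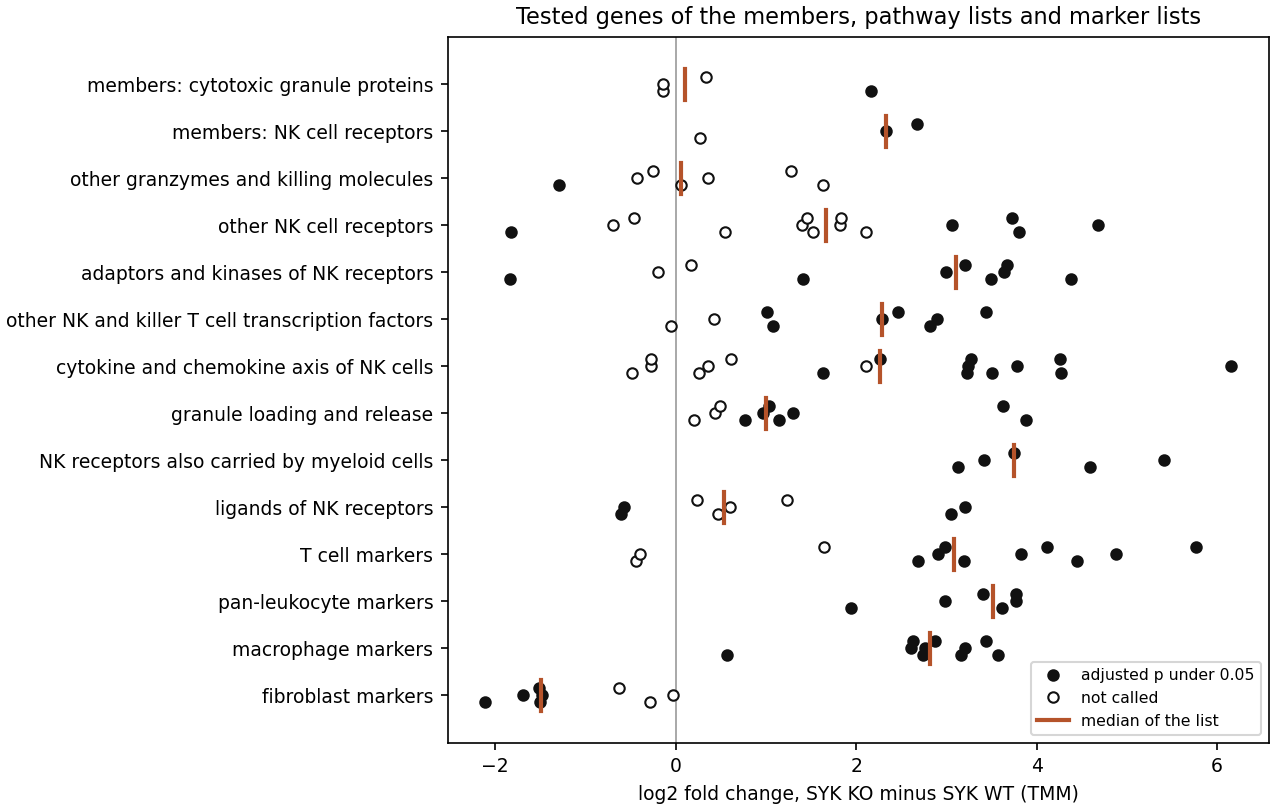
Log2 fold change (SYK KO minus SYK WT, TMM) of each tested gene by list, filled where the adjusted p was under 0.05, with a bar at the median of each list. The granule genes center near 0 (median 0.10), as do the other granzymes and killing molecules (0.06), while pan-leukocyte, macrophage and T cell markers center between 2.82 and 3.51 and fibroblast markers at -1.49.

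Genes that load and release granules rose in 7 of 10 cases (none fell by edgeR, at an unadjusted p under 0.05 or by DESeq2; 3 of the 7 calls were kept without M7 and 2 without M8), led by Ctsc, the protease that activates granzymes (2444 and 1345 counts against 23025 and 12252, log2 fold change 3.63, adjusted p = 0.00143), and Srgn, the proteoglycan that packs them (3.88, adjusted p = 0.00161), both also abundant in myeloid cells. Ap3b1, an adaptor for granule sorting, rose by 1.14 (adjusted p = 0.00591, or 0.0554 without M8). Among the 9 other NK and killer T cell transcription factors tested, 7 rose, of which 4 were called without M7 and 4 without M8. Id2, required for NK cells and innate lymphoid cells, rose by 3.44 (adjusted p = 0.00103), and Runx3, the RUNX factor of killer lymphocytes that is also present in myeloid cells, rose from 229 and 155 counts to 1421 and 742 (2.90, adjusted p = 0.00161). Prdm1, which encodes Blimp-1, rose by 2.46 (adjusted p = 0.00347).

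On the cytokine and chemokine side, 10 of 17 genes tested rose. Cxcl9, the interferon-induced chemokine that draws cells bearing CXCR3, went from 43 and 34 counts to 2509 and 1652 (log2 fold change 6.16, adjusted p = 0.000486). Il2rg, the common cytokine receptor chain, rose by 3.23 (adjusted p = 0.000729) and Il21r, the interleukin 21 receptor, by 4.26 (adjusted p = 0.000884). Among ligands of the receptors, 2 of 8 tested rose and 2 fell. H2-T23, which encodes the Qa-1 ligand of CD94, rose from 431 and 313 counts to 3188 and 1978 (3.21, adjusted p = 0.000729), and Cd48, the ligand of CD244, rose by 3.05 (adjusted p = 0.0012). Ligands of NKG2D were not called, with log2 fold changes of 0.60 for Raet1d (adjusted p = 0.225), 0.24 for Raet1e (0.531) and 1.23 for Ulbp1 (0.143). These values moved with 1 library left out. Ulbp1 ranged from 0.38 (without M9) to 2.15 (without M7). Raet1d ranged from 0.12 (without M9) to 0.91 (without M10), and Raet1e from 0.03 (without M9) to 0.36 (without M10). Nectin2 and Pvr, which are read by the receptor CD226, fell by 0.61 (adjusted p = 0.0271) and 0.57 (adjusted p = 0.0343), and neither was called without M7 (adjusted p = 0.187 and 0.22) or without M8 (0.245 and 0.216).

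Markers of other cells that could carry these transcripts moved too. Of 12 T cell markers, 9 rose and 3 were not called (median log2 fold change 3.09), but at low counts. Of the 9 calls, 3 were kept without M7 and 3 without M8, and DESeq2 called 6. Cd3d, Cd3e and Cd3g summed to 9 and 6 counts in M7 and M8 and to 74 and 79 in M9 and M10, while Cd8a had 5, 14, 11 and 0. The summed level of the 12 markers was 5.62 to 10.9 CPM against 44.1 to 65 CPM. Of 5 markers of mast cells and basophils, which can hold granzyme B, 2 were tested and not called, and the summed level was 2.01 to 4.88 CPM against 0.599 to 1.65. Neutrophil markers rose in 5 of 5 tested, dendritic cell markers in 3 of 4, B cell markers in 1 of 3 and plasmacytoid dendritic cell markers in the 1 of 4 that was tested (Cox6a2), whereas endothelial markers fell in 2 of 4 and fibroblast markers in 5 of 8. The calls of Cox6a2 (adjusted p = 0.31 without M7 and 0.184 without M8) and of the endothelial Tek (0.178 and 0.307) were lost without either library labelled SYK WT. Of the tumor markers, Th and Dbh were at 0 in every library and Hand2 was not called (adjusted p = 0.418). The part of any of these cells in the levels of the members was not tested.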

How the data were processed

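Per the labels and the study's methods, the authors aligned polyA-selected RNA reads of 4 TAM libraries to mm10, and the submitters' processing notes name STAR 2.6.1d, Salmon 1.4.0, SAMtools 1.9, Picard 2.26 and MultiQC 1.11. The deposited values are whole-number counts per Ensembl gene, not normalized, and how they were rounded from Salmon's estimates is not given in the sources used here. The labels describe paired reads and 2 libraries per genotype, the methods single reads in triplicate. The labels name both tumor macrophages and bone marrow-derived ones, and the name of the deposited counts mentions an adoptive transfer. Whether reads were counted by strand is not given in the sources used here.

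GENCODE M21 (GRCm38) matched 54495 of 54532 genes and gave positions and exon lengths. Counts were filtered with filterByExpr, normalized by TMM (factors 0.787 to 1.22) and compared by edgeR 4.0.16 in R 4.3.3 (glmQLFit and glmQLFTest, no covariate) with Benjamini-Hochberg adjustment over all 16451 genes and a threshold of 0.05. Length-scaled levels used merged exons. Within each genotype the libraries were further apart than sampling noise (chi-square per degree of freedom 50.6 and 168), so none was counted as a duplicate. Alternatives were other scalings and filters, the Wald test of DESeq2 1.42.0, leaving out 37 mitochondrial and 4 rRNA-like genes, and leaving out each library. The scripts were tested on simulated data. The members, gene lists and markers were chosen with earlier results of these data known. Named were all members, up to 3 genes per list with the lowest adjusted p, and relatives, partners and ligands of members. RefSeq promoter windows were matched by symbol for 9 of 10 members.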

Additional observations from a re-analysis of the deposited data

How the results depend on the processing

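With 2 libraries per genotype and members at 1 to 205 counts, the calls rest on few reads. The count of members called higher was 3 as reported, 1 with library size only and 0 when scaled to macrophage markers or to pan-leukocyte genes, and 0 to 3 with 1 library left out. Members called lower were 0 as reported and 4 under each marker scaling. Genes called higher numbered 3729 as reported, 1677 by library size, 136 scaled to macrophage markers, 91 scaled to pan-leukocyte genes and 1478 to 5010 with a library left out. Genes called lower numbered 2747, then 5411, 14200, 14922 and 807 to 4745. Pathway genes called higher fell from 42 to 6 and 5 under the marker scalings, and those called lower went from 5 to 37 and 39 and to between 1 and 10 with a library left out. The direction of Klrk1 (-0.10 and -0.58), Klrd1 (-0.42 and -0.91), Nkg7 (-0.47 and -1.01), Gzma (-2.36 and -2.87) and Klrb1c (-2.56 and -3.02) turned under the macrophage and pan-leukocyte scalings, that of Syk under the second (-0.44), and that of Gzma (-0.21) and Klrb1c (-0.23) with library size only. Members near 0 also turned with a library left out. Gzmb ranged from -0.70 to 0.23 (without M10), Prf1 from -0.48 to 0.29 (without M8, and 0.02 without M9), and Klrb1c from -0.69 (without M9) to 0.82. Nkg7 was not called with DESeq2 size factors (adjusted p = 0.0511), with the DESeq2 Wald test (0.0507) or without mitochondrial and rRNA-like genes (0.054). Where 1 library was left out, the lone library was assumed to vary like the other genotype. The cause of these changes was not tested. The sum of Klrb1c with Gm44511 was chosen after seeing the data. No paired analysis was possible because the genotypes share no replicate number.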
